A study of Mus musculus with 5 samples.

Results

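Gas5, a long non-coding RNA gene, is the host of several small nucleolar RNAs (snoRNAs) of the box C/D class, which lie in its introns, and Snord47 is one of them. Both were followed across 5 arrays of RNA from anti-FLAG precipitates. The 2 genes, of 19937 with a probe set of their own, were read by every probe set whose only gene name is Gas5 or Snord47. These were 5 of the 34760 probe sets of the table, 4 for Gas5 and 1 for Snord47. Both genes had been chosen because they were higher in the FLAG-SMN precipitates, so their differences between the groups are given as a description, with no test.

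The FLAG-SMN precipitates came from NSC-34 cells, a mouse motor neuron-like line made by fusing neuroblastoma cells with motor neurons of the spinal cord, carrying a 3XFLAG-tagged full-length construct of the survival of motor neuron protein SMN (FLAG-SMN IP, n = 3). Control precipitates came from NSC-34 cells with no FLAG construct (control IP, n = 2). Cells of both groups were differentiated in 1% serum, for which the labels give 3 days in one protocol and 48 hours before doxycycline in another, received 3 µg/ml doxycycline for 3 days, and had their RNA and protein crosslinked by ultraviolet light (400 mJ/cm2). The promoter of the construct, whether its sequence is mouse or human, and whether the line is 1 clone are not stated in the labels. RNA of the lysates was not analysed here, so more of an RNA in the cells and more of it bound in the precipitate cannot be told apart.

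Host genes such as Gas5 are spliced like messenger RNA genes, and the snoRNAs are trimmed out of the removed introns. Box C/D snoRNAs are bound by fibrillarin, Nop56, Nop58 and Snu13 and guide 2′-O-methylation of ribosomal RNA. The spliced Gas5 RNA begins with a 5′ terminal oligopyrimidine (5′TOP) tract, has no long reading frame and is degraded by nonsense-mediated decay when it is translated, so that it builds up in cells whose growth is arrested. In human cells GAS5 RNA is also known to bind the glucocorticoid receptor. SMN helps assemble Sm protein rings on the small nuclear RNAs of the spliceosome and is concentrated in Cajal bodies, through which box C/D particles also pass as they mature.

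In the RefSeq gene table (GRCm38) Gas5 lies on chromosome 1, spans 3939 bases and has 8 transcripts. It encloses 8 annotated snoRNA genes, of which Snord47, 65 bases long, is the seventh in the direction of transcription. No probe set of its own was available for the other 7, and the 9 further Gas5 snoRNA names looked for (Snord44 and Snord74 to Snord81) matched no probe set, so Snord47 was the single intronic snoRNA of Gas5 with a named probe set. The annotation assigns all 4 Gas5 probe sets to 1 older RefSeq transcript, which is not among those the gene table lists for Gas5, and does not say which exon or intron each one reads, or which strand.

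**Figure D1:**
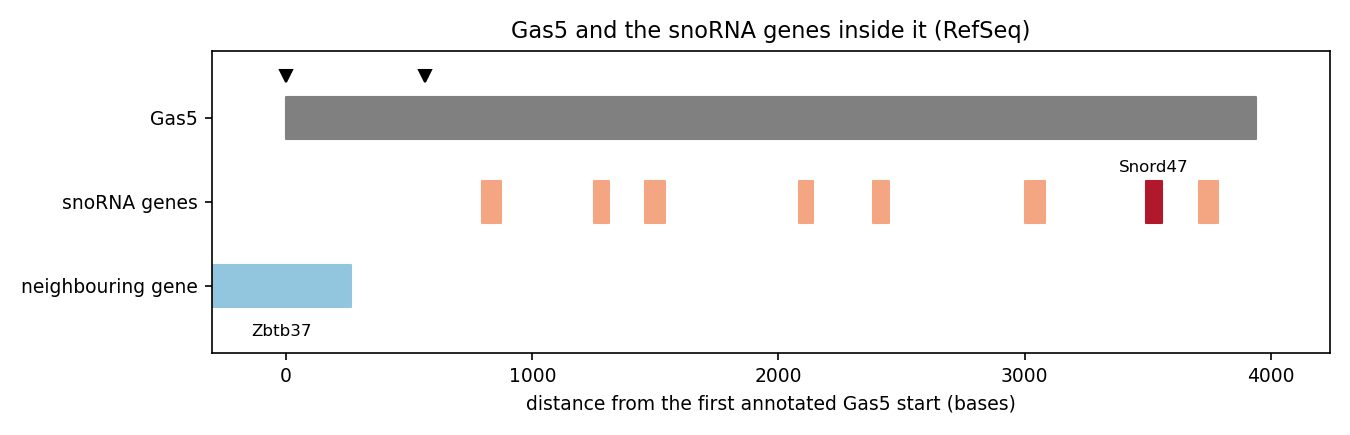
Map of the Gas5 locus in bases from the first annotated start, from the RefSeq table. The grey bar is Gas5, the triangles its 2 annotated starts, the orange bars the 7 snoRNA genes without a probe set, and the red bar Snord47. The blue bar is the near part of the neighbouring gene Zbtb37, which overlaps the first 264 bases of Gas5.

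RefSeq gives 2 starts for Gas5, and the window around the second is shown because that annotated start opens with a pyrimidine tract. Which start the measured RNA uses was not tested. The window covers 250 bases before the start and 50 from it (GRCm38.p6, chr1:161034916-161035215, plus strand). Capitals mark TGACGTCA at position -46 and TATATA at position -29, both searched on both strands, and CTTTC at the first base of the RNA, searched on the sense strand; there is no position 0.
Gas5 second start: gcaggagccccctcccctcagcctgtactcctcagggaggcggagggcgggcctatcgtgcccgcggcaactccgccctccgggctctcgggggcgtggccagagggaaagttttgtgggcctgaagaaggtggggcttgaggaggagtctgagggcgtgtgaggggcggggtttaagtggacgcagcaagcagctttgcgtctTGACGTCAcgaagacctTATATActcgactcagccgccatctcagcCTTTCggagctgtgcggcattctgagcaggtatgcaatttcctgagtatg
Of 32851 promoter windows of this length, 1.79% hold TGACGTCA, 5.67% hold TATATA and 0.137% begin the RNA with CTTTC. The window of the first Gas5 start holds neither TGACGTCA nor TATATA and does not begin the RNA with CTTTC.

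The first 30 RNA bases of both Gas5 starts are set beside those of 3 host genes described below, Snhg5, Snhg16 and Snhg17. Any unbroken run of C and T from the first base is in capitals (GRCm38.p6, chromosomes 1, 9, 11 and 2). Snhg17 lies on the minus strand and has 2 annotated starts, of which the downstream one is shown. Its upstream start, not shown, opens with 0 pyrimidines.
Gas5 first start: gagctcgacagcccggagccaaaggggcgg
Gas5 second start: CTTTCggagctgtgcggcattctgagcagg
Snhg5: gggctcgttcttttacgacggagcctaaga
Snhg16: gatctcgtcctttccgaggtcctctgccgc
Snhg17: TTTCCTgtcgcgtggatgtgtttcctctct
Of these 5 annotated starts, the second Gas5 start opens with such a run of 5 bases and the Snhg17 start with one of 6. A start with C and at least 5 pyrimidines was found in 3.01% of 27025 genes, in 2 of 20 other snoRNA host genes and in 14 of 60 ribosomal protein genes, which are known as a 5′TOP class, so a missing run at an annotated start says little about the RNA.

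All values below are log2 signals after the authors' RMA processing, and a difference is the mean of FLAG-SMN IP minus the mean of control IP. RMA draws the arrays toward a common distribution, so a general difference in recovered RNA is not visible. The medians of the 5 arrays lay between 5.25 and 5.39. Within FLAG-SMN IP, replicate 1 was the least alike (Pearson r across probe sets of 0.964 and 0.968 to the other arrays, which reached 0.989 with each other), and each member's difference is therefore also given without it. FLAG-SMN IP replicates 2 and 3 were each closer to both control arrays (r from 0.968 to 0.977) than to replicate 1. Of 12 neuron and motor neuron markers, 3 (Prph, Snap25 and Tubb3) lay above the upper quartile of presumed control probe sets on all 5 arrays, while Mnx1 and Slc5a7 lay below the median of those probe sets on all 5. In limma 0 of the 12 passed the adjusted threshold of 0.05. With an unadjusted p under 0.05, 0 were higher and 2 lower in FLAG-SMN IP (4.14% and 6.31% of all tested probe sets). The 2 were Snap25 (-2.14, limma adjusted p = 0.131) and Map2 (-1.09, limma adjusted p = 0.209). Snap25 passed the threshold without FLAG-SMN IP replicate 1 (limma adjusted p = 0.00741) and with array weights (limma adjusted p = 0.0446). Of 11 markers of glia, immune cells and fibroblasts, 1 (Pdgfra) lay above that quartile. The array means over the neuron list ran from 5.67 to 6.30 in FLAG-SMN IP and from 6.26 to 6.28 in control IP, those over the other list from 4.92 to 5.03 in FLAG-SMN IP and from 4.81 to 5.01 in control IP, and the part of this in the results below was not tested.

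The brightest Gas5 probe set, 10351026, read 11.57, 10.35 and 10.23 in FLAG-SMN IP replicates 1, 2 and 3, against 9.48 and 8.86 in control IP. Its means were 10.72 ± 0.739 (SD, n = 3) in FLAG-SMN IP and 9.17 ± 0.442 (SD, n = 2) in control IP, a difference of 1.55 or 2.92-fold. The groups did not overlap, but the gap between the lowest FLAG-SMN array and the highest control array, 0.75, was smaller than the distance of 1.28 between FLAG-SMN IP replicate 1 and the mean of replicates 2 and 3. The spread within FLAG-SMN IP was wider than at 96.0% of the 28187 probe sets tested. The difference was 1.12 when FLAG-SMN IP replicate 1 was left out.

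Probe set 10351037 separated the groups furthest. It read 10.46, 10.17 and 10.11 in FLAG-SMN IP, against 7.92 and 7.58 in control IP. The 3 FLAG-SMN arrays were close together and all were at least 2.19 above both control arrays. The means were 10.24 ± 0.187 (SD, n = 3) in FLAG-SMN IP and 7.75 ± 0.244 (SD, n = 2) in control IP, a difference of 2.49 or 5.63-fold, which ranked 33 from the top of all probe sets tested. It was 2.39 when FLAG-SMN IP replicate 1 was left out.

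Probe set 10351035 was dimmer and almost as far apart. It read 7.46, 7.53 and 8.17 in FLAG-SMN IP, against 5.58 and 5.61 in control IP. Here the high FLAG-SMN array was replicate 3, not replicate 1, and the control arrays nearly coincided. The means were 7.72 ± 0.391 (SD, n = 3) in FLAG-SMN IP and 5.60 ± 0.0181 (SD, n = 2) in control IP, a difference of 2.12 or 4.36-fold, and 2.25 without FLAG-SMN IP replicate 1.

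The fourth Gas5 probe set, 10351039, read 3.84, 4.59 and 4.04 in FLAG-SMN IP, against 3.02 and 3.24 in control IP. The groups did not overlap, with a difference of 1.03 (1.19 without FLAG-SMN IP replicate 1). Only FLAG-SMN IP replicate 2 exceeded the median of the presumed control probe sets on its array, which was 4.45, 4.33 and 4.30 on the FLAG-SMN arrays and 4.49 and 4.55 on the control arrays. A fold is left out because signals this low do not fix its size.

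Snord47, measured by probe set 10351043, read 9.34, 9.36 and 9.05 in FLAG-SMN IP, against 7.74 and 7.21 in control IP. The 3 FLAG-SMN arrays were close together and lay at least 1.31 above both control arrays. The means were 9.25 ± 0.174 (SD, n = 3) in FLAG-SMN IP and 7.47 ± 0.373 (SD, n = 2) in control IP, a difference of 1.77 or 3.42-fold. FLAG-SMN IP replicate 1 was not unusual here, 0.14 above the mean of replicates 2 and 3, and without it the difference was 1.73. The control arrays mattered more, since the difference was 2.04 without control IP replicate 1 and 1.51 without control IP replicate 2.

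**Figure D2:**
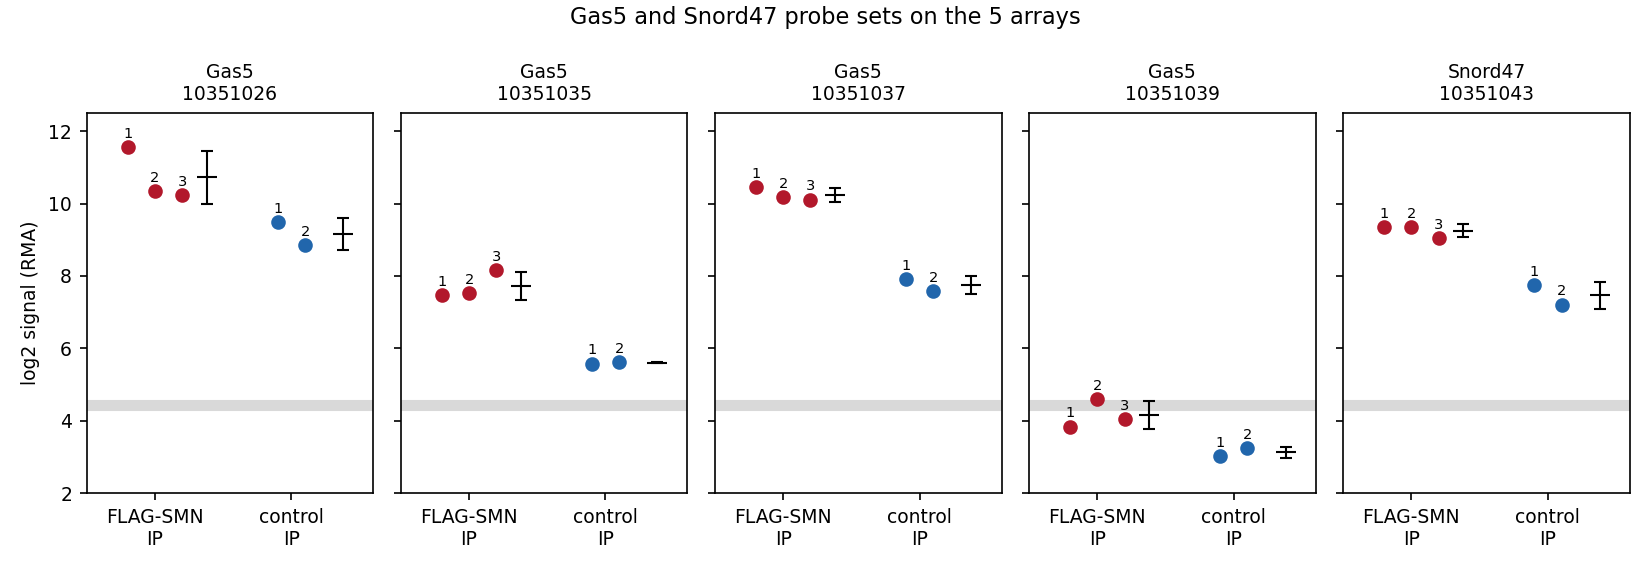
Log2 signal of the 4 Gas5 probe sets and the Snord47 probe set on each array, FLAG-SMN IP in red and control IP in blue, with replicate numbers above the points and group mean ± SD beside them. The grey band is the range of the medians of presumed control probe sets, 4.30 to 4.55. In all 5 panels the red points lie above the blue ones, and at 10351039 4 of the 5 points lie under the band.

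All 5 probe sets thus had every FLAG-SMN array above both control arrays, where 12.1% of all tested probe sets did. A difference of at least 1 was reached by all 5, where 1.42% of all tested probe sets reached it. Since the genes were picked for this contrast, nothing is read from these shares. The 4 Gas5 probe sets spanned 1.47 in their differences, from 1.03 to 2.49. Without the dim 10351039 the span was 0.95. Among the other 29 genes with exactly 4 probe sets of their own, all 4 were positive in 10, and all 4 kept the FLAG-SMN arrays above the control arrays in 2, the ribosomal protein genes Rpl7 and Rpl10a. The median span of these 29 genes was 0.562. Of them, 0 spanned more than the 1.47 of Gas5, a value whose low end is the dim 10351039. Against the span of 0.95 without that probe set, 5 spanned more.

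The Gas5 probe sets did not move together within FLAG-SMN IP. Replicate 1 was above the mean of replicates 2 and 3 by 1.28 at 10351026 and by 0.32 at 10351037, whereas the same distance was -0.39 at 10351035 and -0.48 at 10351039. Averaged over the 4 probe sets these deviations largely cancelled, and Gas5 stood at 8.33, 8.16 and 8.14 in FLAG-SMN IP, against 6.50 and 6.32 in control IP. The averaged difference was 1.80, and 2.05 without the dim 10351039, a choice made after its values were seen. For Snord47 it was 1.77, so how close the average comes to it depends on that probe set.

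**Figure D3:**
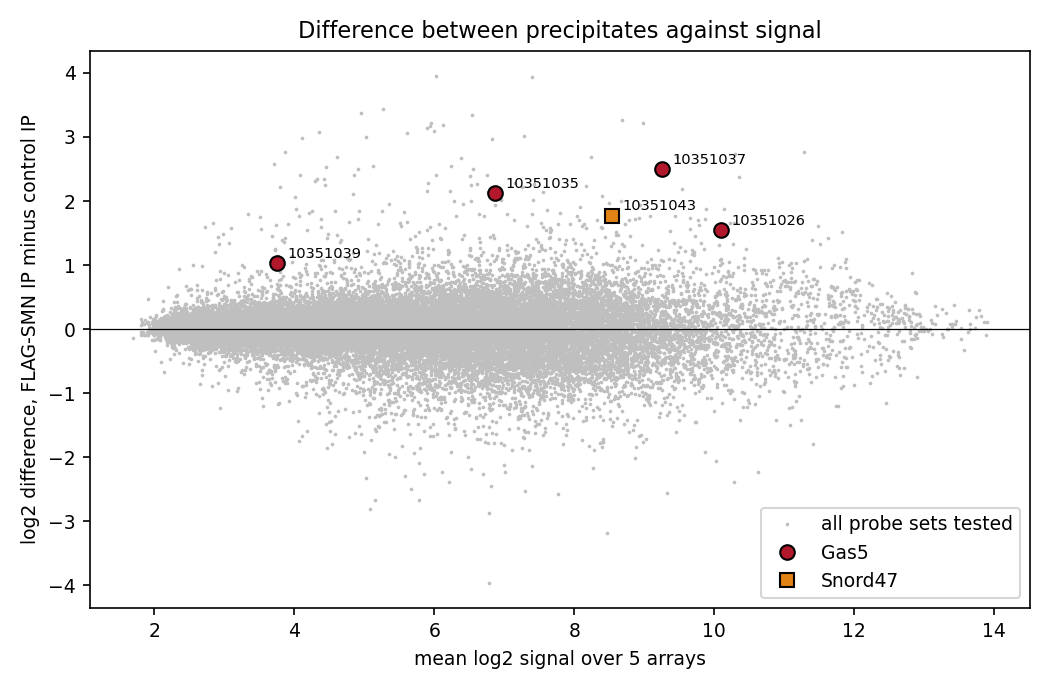
Log2 difference (FLAG-SMN IP minus control IP) against mean log2 signal over the 5 arrays, with all 28187 tested probe sets in grey, Gas5 in red and Snord47 in orange. The 5 labelled probe sets lie at the upper edge of the cloud, from 1.03 for 10351039 at low signal to 2.49 for 10351037.

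Snord47 and Gas5 were then set beside other snoRNAs and the genes they lie in. Of 30 genes named Snord with a probe set of their own, 27 had a positive difference and 19 had every FLAG-SMN array above both control arrays (12.1% of all tested probe sets), with a median difference of 0.915. In order of size Snord47 came next after 4 of them, Snord22 (2.97), Snord15a (2.23), Snord42a (2.01) and Snord14e (1.77). At some of the 30 genes the FLAG-SMN arrays spread widely. Replicates 1, 2 and 3 read 9.39, 6.22 and 8.43 at Snord22, 5.35, 9.92 and 10.40 at Snord82, and 3.76, 10.64 and 10.03 at Snord118. The counts and the order are given for all 5 arrays only. Among 675 long non-coding RNA genes the median difference was 0.000751, and Gas5 at its brightest probe set had the third largest. Gas5 and Snord47 had been chosen for this contrast, so nothing is read from their ranks.

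For 32 snoRNAs or small Cajal body RNAs the gene whose span encloses them was also measured, which gave 28 such host genes. For 3 of the 32, Snord47 among them, the spans of 2 annotated genes enclose the small RNA, and the one with a probe set of its own was used. The median difference was 0.59 for these small RNAs and 0.22 for the host genes. Snord47 with Gas5 was the 1 pair of 32 in which both differed by at least 1, at 1.77 and 1.55. In 5 of the 32 pairs both genes had every FLAG-SMN array above both control arrays, as 12.1% of all tested probe sets did singly. Snord15a with Rps3 and Snord42a with Rpl23a were also among these 5. Snord15a (2.23) lies in the ribosomal protein gene Rps3 (0.54), Snord42a (2.01) in Rpl23a (0.69) and Snord14e (1.77) in the chaperone gene Hspa8 (0.13). Strand was not used in pairing, and the pair of Gas5 and Snord47 had been chosen from these values, so this is a description.

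**Figure D4:**
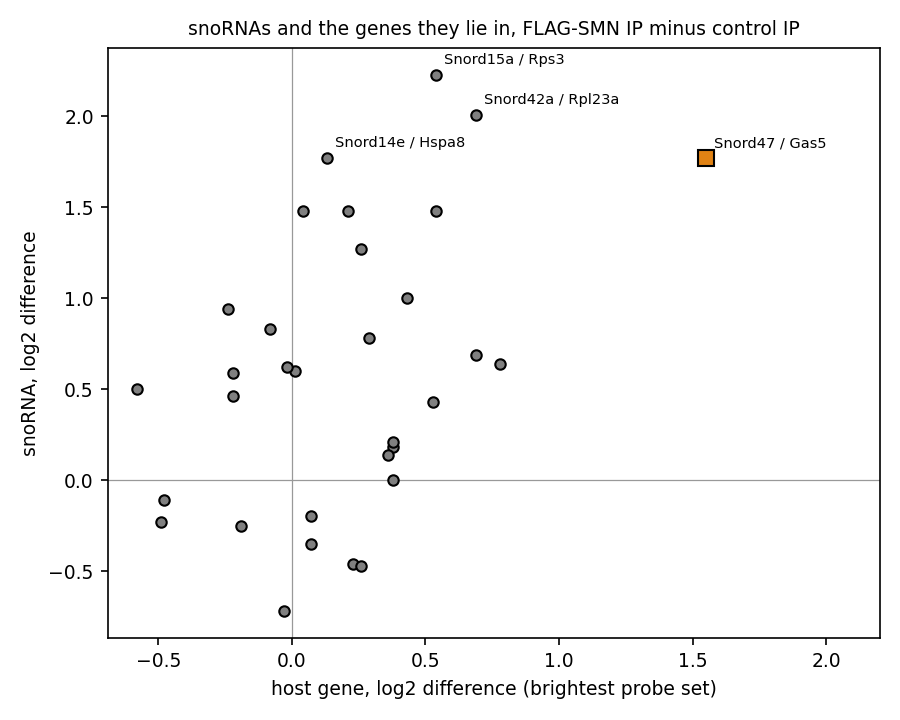
Log2 difference (FLAG-SMN IP minus control IP) of 32 snoRNAs and small Cajal body RNAs against that of the gene they lie in, at its brightest probe set. The orange square is Snord47 with Gas5 (1.77 and 1.55), the host gene furthest to the right; the other host genes with a snoRNA above 1.6 lie at 0.69 or less.

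The other measured genes that host snoRNAs without coding for a protein, or mainly serve as such hosts, were taken as a list. Each gene was tested singly, and the list as a whole was not tested. In limma, with p-values adjusted by Benjamini-Hochberg across the 28187 tested probe sets, 0 of 9 passed the adjusted threshold of 0.05, where 0.0142% of all probe sets were called higher and 0.0177% lower. With an unadjusted p under 0.05 there was 1 on the higher side and 0 on the lower (4.14% and 6.31% of all probe sets), and the median difference was 0.30 against 0.018 over all probe sets. Snhg5 was that gene. It read 10.08, 8.87 and 8.74 in FLAG-SMN IP, against 7.30 and 7.0 in control IP, a difference of 2.08 (SE 0.41; limma adjusted p = 0.161). Snhg16 read 7.82, 6.26 and 6.58 in FLAG-SMN IP, against 5.81 and 6.10 in control IP (0.93, limma adjusted p = 0.554). In both, as at Gas5 probe set 10351026, FLAG-SMN IP replicate 1 was the highest array. Snhg17 had the reverse order, with FLAG-SMN IP values of 7.27, 10.15 and 10.50 for replicates 1, 2 and 3, against 9.30 and 8.31 in control IP (0.50, limma adjusted p = 0.96). Dancr, a host of a snoRNA that also regulates differentiation, gave 0.39 (limma adjusted p = 0.592).

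The genes of the pathways that make, read or degrade Gas5 RNA had 0 members past the adjusted threshold in limma in any list. Over all tested probe sets, 4.14% were higher and 6.31% lower with an unadjusted p under 0.05, the shares to set beside the counts below. These shares count every probe set, whereas the lists hold 1 probe set a gene. Over 19937 genes, each at its brightest probe set, the shares were 3.25% higher and 7.21% lower. Of 15 genes for the core and assembly of box C/D particles, 0 had an unadjusted p under 0.05 and the median difference was 0.011; the mRNAs of the core proteins Fbl (-0.46), Nop56 (-0.58) and Snu13 (-0.43) had the smallest p-values (limma adjusted p from 0.563 to 0.607). For 13 nonsense-mediated decay factors the median was -0.17, and the 1 gene with an unadjusted p under 0.05 was Smg9, on the lower side (-0.47, limma adjusted p = 0.43). For 13 known substrates of this decay the median was -0.079, and the 1 gene on that criterion was the stress gene Gadd45b, on the higher side (1.04, limma adjusted p = 0.206). The differences of 3 of the 4 Gas5 probe sets were larger than that of any of these 13 substrates at its brightest probe set, which was not tested. Gas5 had been chosen for this contrast and the substrates had not, so nothing is read from that.

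Genes that share the 5′TOP class with Gas5 were 17 with a median of 0.14. Ribosomal protein genes were left out of them, except Fau (0.13). Of them 2 had an unadjusted p under 0.05, both on the higher side (4.14% of all tested probe sets). These were the elongation factor gene Eef1d (0.65, limma adjusted p = 0.30) and the intermediate filament gene Vim (0.67, limma adjusted p = 0.467). In 7 of the 17 every FLAG-SMN array lay above both control arrays, which 12.1% of all tested probe sets also did. The nucleolar protein gene Npm1 read 11.58, 10.04 and 10.56 in FLAG-SMN IP, against 9.88 and 9.65 in control IP (0.96, limma adjusted p = 0.508), again with replicate 1 highest. Genes of mTOR signalling, which controls 5′TOP translation, were 12 with a median of -0.26. The 2 with an unadjusted p under 0.05 were on the lower side (6.31% of all tested probe sets), Mtor (-0.52, limma adjusted p = 0.478) and Rictor (-0.56, limma adjusted p = 0.338).

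A list of growth arrest-specific genes, a name that Gas5 also carries, held 9 with a median of 0.15. It includes the Gas2-like genes Gas2l1, Gas2l2 and Gas2l3. The 1 of these 9 with an unadjusted p under 0.05 was Gas7 (-0.84, limma adjusted p = 0.175), on the lower side (6.31% of all tested probe sets). Gas1 gave 0.44 (limma adjusted p = 0.651). The glucocorticoid receptor gene Nr3c1 read 6.45, 6.98 and 7.02 in FLAG-SMN IP, against 6.41 and 7.16 in control IP, a difference of 0.04 (limma adjusted p = 0.996). With its cofactors and target genes it belonged to a list of 14 with a median of -0.073, where the 1 gene on that criterion was Zbtb16, on the lower side (-0.45, limma adjusted p = 0.469).

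Of the 5 measured genes next to Gas5 on chromosome 1, 1 had every FLAG-SMN array above both control arrays, a share near the 12.1% of all tested probe sets, and that was Klhl20 (difference 0.37, limma adjusted p = 0.601). Zbtb37, whose annotated span overlaps the first 264 bases of Gas5 on the opposite strand, gave 0.02 (limma adjusted p = 0.999). The antithrombin gene Serpinc1 gave 0.06 (limma adjusted p = 0.985). The RNA-binding ubiquitin ligase gene Rc3h1 gave -0.46 and -0.91 at its 2 probe sets (limma adjusted p = 0.538 and 0.245). On the other side the centromere protein gene Cenpl gave 1.18, with overlapping groups of 4.63, 6.23 and 5.99 in FLAG-SMN IP, against 4.01 and 4.87 in control IP (limma adjusted p = 0.493).

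Likeness of pattern was measured over the 5 arrays as the root mean square difference between profiles centred on their own means, among all probe sets with 1 gene name. The profile nearest to the averaged Gas5 profile was that of Smn1, the gene of the protein that was tagged, at 0.124 log2 units. Smn1 read 9.89, 9.50 and 9.46 in FLAG-SMN IP, against 8.10 and 7.64 in control IP. It was also the nearest to Snord47, at 0.131. Gas5 and Snord47 were 0.14 apart, so that Smn1 was the 1 other gene nearer to either of them than they were to each other. With 10351039 left out of the average, Smn1 was still the nearest to Gas5, at 0.172, but Gas5 and Snord47 were 0.23 apart and 3 other genes were nearer to Gas5 (Smn1, Gm24463 and Zc3h3). For the Gas5 average over all 4 probe sets the next were Snord42a (0.194), the LIM protein gene Csrp2 (0.207), Prelid2 (0.216) and Got1l1 (0.223). For Snord47 they were the ribosomal protein gene Rps25 and Snord42a (0.185 each), Csrp2 (0.229) and Prelid2 (0.267). Single Gas5 probe sets were further from Snord47 than their average was, from 0.37 for 10351037 to 0.50 for 10351039. Any probe set with a similar difference between the groups comes out near by this measure, and 5 arrays of 2 groups cannot show more than that.

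**Figure D5:**
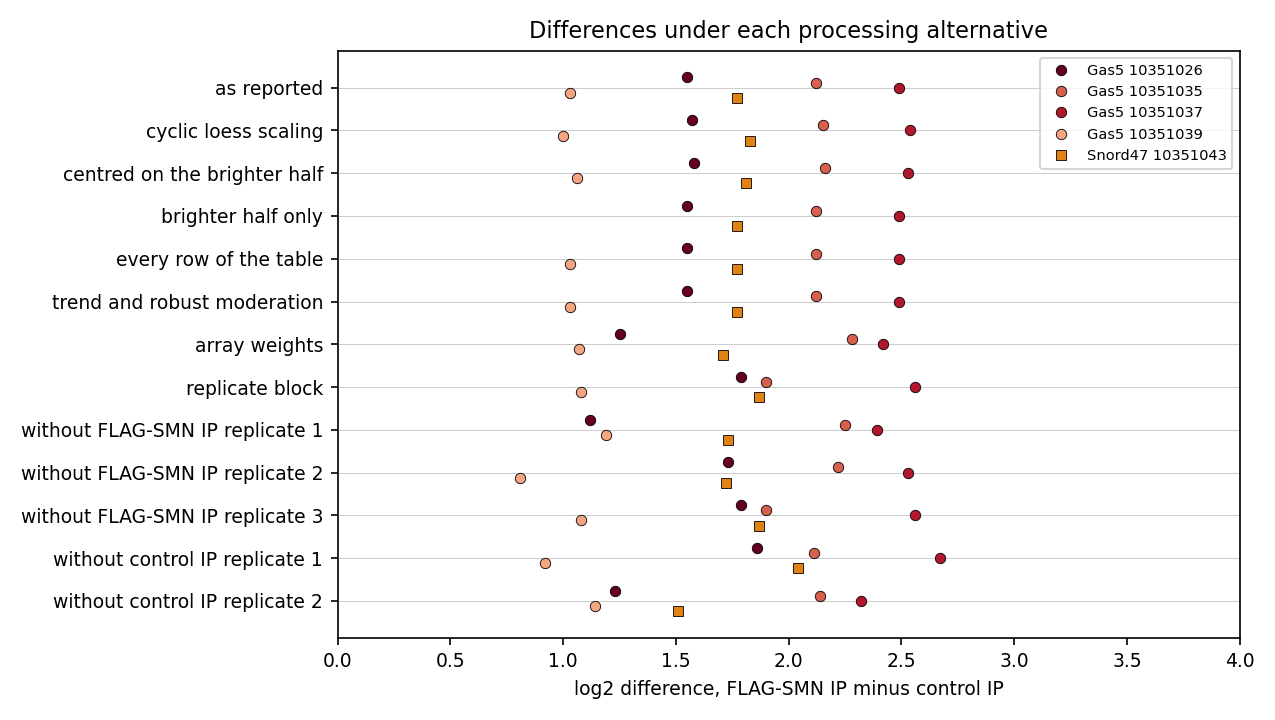
Log2 difference (FLAG-SMN IP minus control IP) of the 4 Gas5 probe sets and of Snord47 as reported and under each processing alternative. All points lie above 0; 10351037 stays furthest to the right, from 2.32 to 2.67, and 10351026 moves most, from 1.12 to 1.86.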

How the data were processed

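The deposited table holds log2 values of 1-colour Affymetrix arrays, normalized by the authors with RMA per the submitters' processing notes; no RMA version or genome build is stated in them. Per the labels' protocols, RNA eluted from anti-FLAG beads was digested with proteinase K and extracted, and 300 to 500 ng were labelled. Values ran from 1.28 to 14.15. The 6573 probe sets with IDs below the lowest annotated ID were taken as presumed controls, which left 28187; this rule came after the table was opened. Of these, 21640 carried 1 gene name, 1321 several and 5226 none, and 21553 matched the RefSeq gene table by gene ID.

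Groups came from the sample titles. Whether replicates were separate cultures is not stated in the labels, and p-values cover only the spread among these arrays, possibly a technical one. Genes other than the members were tested with limma 3.58.1 in R 4.3.3 (3 residual and 3.8 prior degrees of freedom, 2-sided, Benjamini-Hochberg over all 28187, threshold 0.05). On simulated independent noise with added differences, only the mean estimated difference was required to come close to the added one. That check sets no limit on false calls in these arrays. Lists use each gene's brightest probe set. The members, lists and tests were chosen with earlier results of these data known. Named were all members, the measured genes next to Gas5 (3 on each side were looked up), the 5 nearest patterns, Smn1, Nr3c1 and, within lists, genes among the 3 of smallest p; Snhg17 and Snord genes were added after their values were seen. The array number limits precision. Alternatives were other scalings, probe set filters, moderation, array weights, the replicate block and leaving out each array. Figures used matplotlib 3.10.9. Sequences are RefSeq's (GRCm38.p6).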

Additional observations from a re-analysis of the deposited data

How the results depend on the processing

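All 4 Gas5 probe sets and Snord47 kept a positive difference under each alternative run. With each array left out in turn, the differences ran from 1.12 to 1.86 for 10351026, from 1.90 to 2.25 for 10351035, from 2.32 to 2.67 for 10351037, from 0.81 to 1.19 for 10351039, from 1.51 to 2.04 for Snord47 and from 1.71 to 1.89 for the Gas5 average. Without probe set 10351039, an alternative chosen after seeing the data, that average was 2.05. Over all probe sets, 4 higher and 5 lower passed the threshold. Cyclic loess scaling and testing every row of the table each gave 0 and 0, centring on the brighter probe sets 16 and 25, and array weights 26 and 60; trend and robust moderation gave 8 lower. Leaving out single arrays gave 0 to 159 higher and 0 to 191 lower, the high counts without FLAG-SMN IP replicate 1 and 0 in each other case; the cause was not tested. The replicate block, over the 4 arrays numbered 1 and 2, gave 0 and 0, with differences of 1.79, 1.90, 2.56 and 1.08 for the Gas5 probe sets and 1.87 for Snord47; same-numbered arrays deviated from their group means with correlations of 0.13 and -0.20, so the numbers are not known to pair the arrays. Of 130 recomputed list medians, 121 moved by less than the spread between arrays. Snhg5 passed the threshold without FLAG-SMN IP replicate 1. Probe set 10351039 could not be followed with the brighter probe sets alone, being too dim.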

Other observations

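By probe set ID, 2 probe sets without a gene name lie between the Gas5 and Cenpl probe sets. The first, 10351041, read 4.87, 6.80 and 7.23 in FLAG-SMN IP, against 5.23 and 6.33 in control IP, and its groups overlapped (difference 0.52). The second, 10351045, read 6.77, 5.18 and 6.05 in FLAG-SMN IP, against 3.43 and 4.87 in control IP, so that its lowest FLAG-SMN array lay just above its highest control array (difference 1.85). What they read is not annotated in the tables used here, and both were singled out after their values were seen.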
